A study of Arabidopsis thaliana with 12 samples.

Results

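XTH18 (AT4G30280) and XTH19 (AT4G30290) are adjacent genes on chromosome 4 of Arabidopsis thaliana, and each was read by 1 probe set. These 2 genes, of 13286 that the 22746 tested probe sets name, were picked by their probe sets because earlier results on the same arrays showed different responses. Their levels and changes are therefore given as a description, with no test. RNA came from whole seedlings that were 9 days old. LEAFY-GR seedlings were taken at 8 h of a mock treatment, of dexamethasone alone, of cycloheximide alone, or of both agents. Untreated Landsberg erecta seedlings and untreated 35S::LFY seedlings made up the other 2 groups. Each of the 6 groups had 2 arrays, 1 in lot 1 and 1 in lot 2, and no source says whether these were separate cultures, so a p-value here reflects array-to-array spread that could be purely technical. In LEAFY-GR the floral regulator LEAFY is fused to a steroid receptor domain, and adding dexamethasone makes the fusion active. The labels do not name the promoter of LEAFY-GR, its parental strain, or whether 1 line or several were used. In 35S::LFY seedlings LFY is expressed constitutively, and no seedlings lacking LEAFY-GR received dexamethasone or cycloheximide in the samples analysed here.

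Xyloglucan is a hemicellulose that tethers cellulose in the walls of growing plant cells. Enzymes of the XTH family cut a xyloglucan chain and join the cut end to another chain, or in some members to water, which remodels the wall as a cell expands. In Arabidopsis, XTH18 and XTH19 belong with XTH17 and XTH20 to a subgroup known for expression in roots, and the neighbouring genes encode closely related proteins. Cycloheximide stops protein synthesis, so a transcript that responds to activated LEAFY-GR in its presence can do so without newly made proteins.

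The deposited values are linear intensities, and changes are differences of log2(intensity + 10), a scale that understates the change of dim probe sets. The arrays had medians of 49.8 to 69.4, and the 2 arrays of a group correlated at 0.959 to 0.979 over all probe sets, a description across genes. The ratio of 3′ to 5′ signal, a sign of RNA integrity, ranged from 0.97 to 1.3 for GAPDH, 1.35 to 2.25 for actin and 1.4 to 1.98 for ubiquitin. Of the root markers 3 of 22 were measured by a named probe set (EXPA7, EXPA18 and PYK10), and of the green shoot markers 2 of 10 (LHCB4.1 and RCA), all above 0 on every array.

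XTH18 read 149.0 and 119.3 in Landsberg erecta in lots 1 and 2, 74.6 and 94.4 in 35S::LFY, and 150.3 and 151.6 in mock-treated LEAFY-GR. With dexamethasone it read 228.0 and 145.4. With cycloheximide it read 5773.1 and 6730.7, and with both agents 6742.6 and 6694.3. The 8 arrays without cycloheximide thus lay between 74.6 and 228.0, and the 4 with it between 5773.1 and 6742.6. From lowest to highest mean the order was 35S::LFY, Landsberg erecta, mock, dexamethasone, cycloheximide, and both agents. Mock and dexamethasone overlapped, as did cycloheximide and both agents, and Landsberg erecta (highest 149.0) lay just under mock (lowest 150.3).

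XTH19 read 103.8 and 80.2 in Landsberg erecta, 47.8 and 62.1 in 35S::LFY, and 46.4 and 48.6 in mock-treated LEAFY-GR. With dexamethasone it read 2.1 in lot 1 and 9.7 in lot 2, both below the pseudocount of 10. With cycloheximide it read 628.8 and 594.7, and with both agents 556.2 and 536.0. The dexamethasone arrays were thus the lowest of the 12, and the 4 cycloheximide arrays the highest. The order of means was dexamethasone, mock, 35S::LFY, Landsberg erecta, both agents, and cycloheximide, and the only neighbours in it whose arrays overlapped were mock and 35S::LFY. The pooled SD between the arrays of a group was 0.225 on the log2 scale for XTH18 and 0.245 for XTH19.

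**Figure D1:**
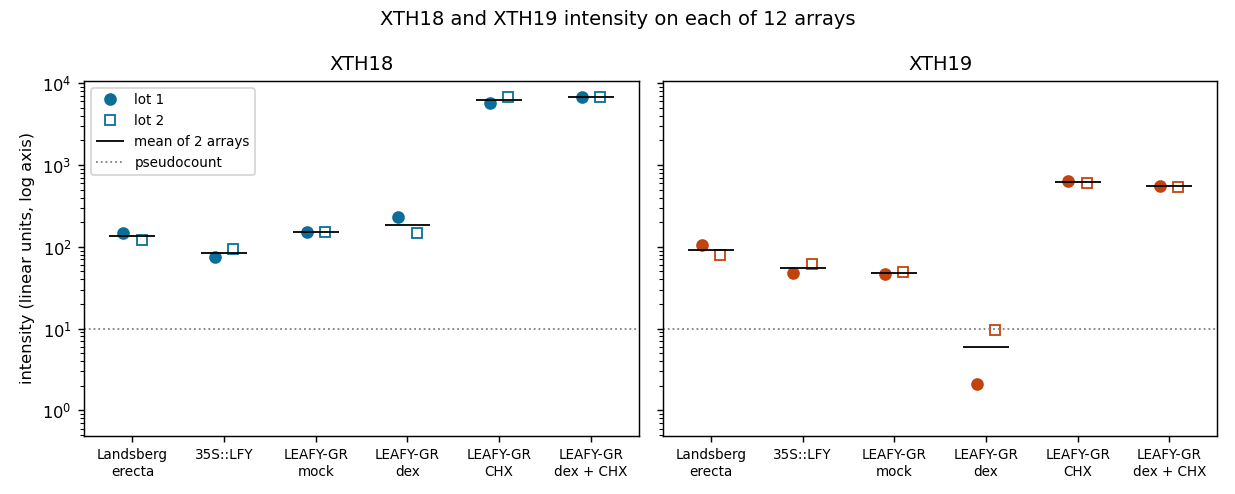
Intensity of XTH18 (left) and XTH19 (right) on each of the 12 arrays, on a log axis, with lot 1 as filled circles, lot 2 as open squares, bars at group means and a dotted line at the pseudocount of 10 (dex, dexamethasone; CHX, cycloheximide). Both genes were highest on the 4 arrays with cycloheximide, and XTH19 alone of the pair lay under 10 with dexamethasone, at 2.1 and 9.7.

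The adjacent genes parted when LEAFY-GR was activated without cycloheximide: XTH19 was near the bottom of the scale, and XTH18 stayed between 145.4 and 228.0. With dexamethasone XTH19 read lower than in mock in both lots, 2.1 against 46.4 and 9.7 against 48.6, a mean log2 change of -1.90 ± 0.46 (SD of 2 lots). Its dexamethasone readings lay below 13.9, the 20th percentile of all values, so the size of this change rests on the pseudocount: it was -3.07 with a pseudocount of 1 and -0.81 with 50. XTH18 changed by 0.57 in lot 1 and -0.06 in lot 2, so its arrays showed no common direction. The change of XTH18 exceeded that of XTH19 by 2.79 in lot 1 and 1.52 in lot 2 on the log2 scale, a description that rests on the same dim readings. Without dexamethasone replicate 1 the XTH18 change was -0.05 and the XTH19 change -1.55, and without dexamethasone replicate 2 they were 0.56 and -2.25. Over all probe sets 12.3% had both dexamethasone arrays below both mock arrays, and 0.259% were called lower at an adjusted p under 0.05 by limma. Since the pair was chosen on this contrast, nothing is read from those shares.

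The 3′ to 5′ ratios read higher with dexamethasone than in mock in both lots, a difference given without a test. The ratio of GAPDH was 1.12 in mock and 1.17 with dexamethasone in lot 1, and 0.97 and 1.28 in lot 2. For actin it went from 1.75 to 1.94 in lot 1 and from 1.63 to 1.67 in lot 2, and for ubiquitin from 1.51 to 1.69 and from 1.43 to 1.49. The part of these higher ratios in the XTH19 change was not tested. The summed root markers were 5004.9 and 5681.6 with dexamethasone against 4970.3 and 5347.2 in mock, a sum made up mostly of PYK10. EXPA18, a root hair expansin, read 46.8 and 57.2 with dexamethasone against 51.8 and 85.9 in mock, lower in both lots, and EXPA7 read 47.9 and 68.0 against 45.2 and 37.6, higher in both. The part of root tissue in the XTH19 change was not tested. In whole seedlings, fewer cells of a type and less RNA per cell cannot be told apart.

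With cycloheximide present, adding dexamethasone went with little relative difference in either gene. XTH19 read 88.5% of its cycloheximide level in lot 1 and 90.1% in lot 2, a log2 change of -0.16 ± 0.02 (SD of 2 lots). XTH18 changed by 0.22 in lot 1 and -0.01 in lot 2, a mean of 0.11 ± 0.16, or -0.00 after quantile normalisation. Both XTH19 arrays with both agents lay below both cycloheximide arrays, as held for 14.5% of all probe sets. The mean change was smaller than the pooled SD of 0.245, to which the dim dexamethasone arrays add most (SD 0.5). Within the groups compared here the SD was 0.06 (cycloheximide) and 0.04 (both agents). In both lots the actin and ubiquitin 3′ to 5′ ratios were higher with both agents than with cycloheximide (actin 2.11 and 1.4, from 1.78 and 1.35). The GAPDH ratio was higher in lot 1 and lower in lot 2 (1.12 and 1.01, from 1.03 and 1.04). The part of RNA integrity was not tested. The log2 change of XTH19 with dexamethasone was less negative with cycloheximide than without it. The difference was 2.05 in lot 1 and 1.43 in lot 2, a mean of 1.74 ± 0.44. For XTH18 the same difference was -0.35 and 0.05 (mean -0.15, or 0.03 with arrays scaled to equal medians). The XTH19 value depends on the pseudocount, since the dexamethasone arrays are dim: it was 2.91 with a pseudocount of 1 and 0.66 with 50. It also depends on the log2 scale, since XTH19 read 628.8 and 594.7 with cycloheximide alone and 46.4 and 48.6 in mock. In intensity units the fall of XTH19 with dexamethasone was larger with cycloheximide than without it, in both lots.

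With cycloheximide alone both genes read far above mock in both lots. XTH18 was 38.4 times its mock intensity in lot 1 and 44.4 times in lot 2, a log2 change of 5.28 ± 0.15 (SD of 2 lots), at rank 131 from the top of 22746. XTH19 was 13.6 and 12.2 times its mock intensity, a change of 3.43 ± 0.09, at rank 521. The XTH18 change was larger than that of XTH19 by 1.67 in lot 1 and 2.02 in lot 2. Among all probe sets 30.1% had both cycloheximide arrays above both mock arrays and 17.2% were called higher, and this contrast also entered the choice of the pair.

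The summed root markers, mostly PYK10, went the other way, at 2457.1 and 1304.4 with cycloheximide against 4970.3 and 5347.2 in mock. Of the 3, limma called 2 lower, against 25.6% of all probe sets. These were EXPA18 (-0.99 ± 0.30, SE, adjusted p = 0.019) and PYK10, a root β-glucosidase gene (-1.55 ± 0.27, adjusted p = 0.000539). EXPA7, an expansin of root hairs, changed by -0.10 ± 0.31 (adjusted p = 0.834), with -0.32 in lot 1 and 0.12 in lot 2. The summed shoot markers were lower as well, at 8543.1 and 9954.3 against 11083.9 and 15797.2. Of these, limma called LHCB4.1 lower (-0.87 ± 0.23, adjusted p = 0.00874) and did not call RCA (-0.27 ± 0.26, adjusted p = 0.464). The 3′ to 5′ ratios had no common direction over the lots. With cycloheximide against mock, GAPDH was 1.03 and 1.04 against 1.12 and 0.97, and actin 1.78 and 1.35 against 1.75 and 1.63. Ubiquitin was 1.72 and 1.4 against 1.51 and 1.43. The part of tissue composition or of RNA integrity in the cycloheximide values of the pair was not tested.

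In 35S::LFY seedlings both genes were lower than in Landsberg erecta, and by nearly the same amount. XTH18 stood at 50.1% of its Landsberg erecta level in lot 1 and 79.1% in lot 2, a log2 change of -0.61 ± 0.43 (SD of 2 lots). XTH19 stood at 46.1% and 77.4%, a change of -0.65 ± 0.46. The changes of the 2 genes differed by 0.07 in lot 1 and 0.01 in lot 2. The arrays of the 2 groups did not overlap for either gene, as held in this direction for 22.3% of all probe sets, and 0.123% were called lower. Summed root markers overlapped between the groups, at 6175.8 and 7028.7 in 35S::LFY and 6435.9 and 6645.3 in Landsberg erecta, again mostly PYK10. The other measured root markers were lower in 35S::LFY in both lots, EXPA7 by log2 changes of -0.73 and -0.20 and EXPA18 by -0.05 and -0.37, the direction of XTH18 and XTH19, and neither passed (limma adjusted p = 1 for both). The GAPDH 3′ to 5′ ratio was slightly lower in 35S::LFY in both lots (1.25 and 1.24, against 1.27 and 1.3). Actin was equal in lot 1 and lower in lot 2 (1.98 and 1.99, against 1.98 and 2.25). Ubiquitin was higher in lot 1 and lower in lot 2 (1.76 and 1.86, against 1.73 and 1.98). The part of root tissue or of RNA integrity in the changes of the pair was not tested.

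Mock-treated LEAFY-GR seedlings differed from Landsberg erecta in XTH19 but hardly in XTH18. XTH19 stood at 44.7% and 60.6% of its Landsberg erecta level, a log2 change of -0.82 ± 0.28 (SD of 2 lots), or -0.65 with arrays scaled to equal medians, a scaling that moved the median change of all probe sets by 0.13. XTH18 changed by 0.01 in lot 1 and 0.32 in lot 2. The XTH19 arrays did not overlap, as held in this direction for 32.7% of all probe sets, and 3.82% were called lower. The transgene and the mock treatment cannot be told apart in this comparison. The summed root markers were lower in mock, 4970.3 and 5347.2 against 6435.9 and 6645.3, and so were the 3′ to 5′ ratios of GAPDH (1.12 and 0.97, against 1.27 and 1.3), actin (1.75 and 1.63, against 1.98 and 2.25) and ubiquitin in both lots. The part of either in the XTH19 value was not tested. The mock arrays and the Landsberg erecta arrays each serve in more than 1 of these comparisons. Over the 3 LEAFY comparisons (dexamethasone against mock, both agents against cycloheximide, and 35S::LFY against Landsberg erecta), which share no arrays, XTH19 was lower in 6 of 6 comparisons within a lot and XTH18 in 4. Being lower in all 6 held for 3.17% of all probe sets, and nothing is read from it, since these values entered the choice.

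**Figure D2:**
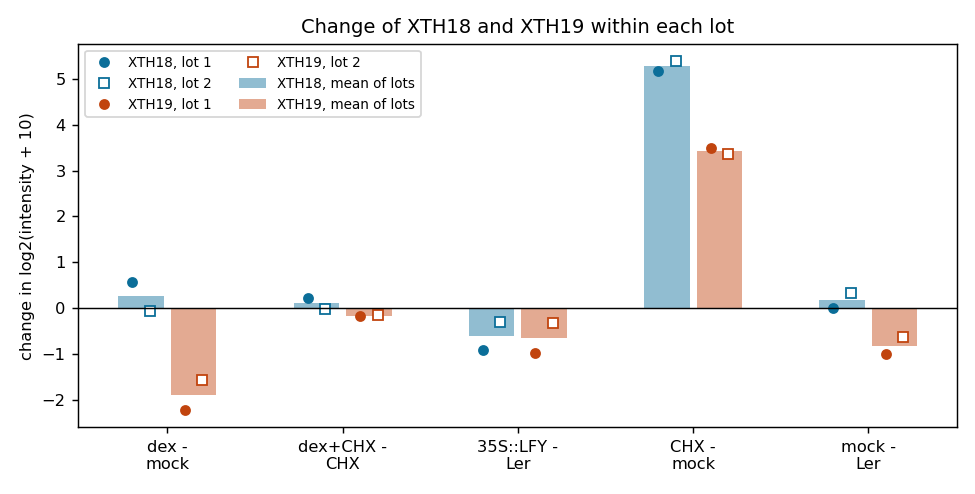
Change of XTH18 (blue) and XTH19 (orange) in log2(intensity + 10) in 5 comparisons, with bars at the mean of the lots and points for lot 1 (filled) and lot 2 (open); Ler is Landsberg erecta. The genes part with dexamethasone (0.26 against -1.90), lie alike below 0 in 35S::LFY (-0.61 and -0.65) and both lie above 0 with cycloheximide (5.28 and 3.43).

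The rest of the family and the chromosomal surroundings were not used in choosing the pair, so limma results are given for them. These gene lists and tests were still set with earlier results of the same arrays known. Of 31 other XTH genes 8 were measured by a named probe set, and 23 have no probe set named here, among them XTH17 and XTH24, the gene on the other side of XTH18. None of the 8 was called by limma with dexamethasone (0.475% of all probe sets called), with both agents against cycloheximide (0.193%), in 35S::LFY (0.295%) or for the difference between the dexamethasone responses (0.0308%). Nothing is read from these counts at such shares. At an unadjusted p under 0.05 there were 1, 0, 2 and 0 of the 8 in these contrasts in turn. The share of all probe sets at that unadjusted threshold is not given here, so nothing is read from these numbers. Their median log2 changes were 0.06, -0.20, -0.05 and 0.03, against 0.07, -0.01, -0.04 and -0.08 for all probe sets.

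XTH20, the 1 measured subgroup relative of the pair, read 38.0 and 45.4 with dexamethasone against 23.6 and 36 in mock, a log2 change of 0.39 ± 0.32 (SE, limma adjusted p = 0.849). In 35S::LFY it changed by 0.03 ± 0.32 (adjusted p = 1), beside -0.61 for XTH18 and -0.65 for XTH19. XTH16 had lower readings with dexamethasone in both lots (214.9 and 229.7 against 329.1 and 289.7, -0.46 ± 0.16, adjusted p = 0.463) and in 35S::LFY (207.5 and 231.5 against 346.2 and 332.3, -0.61 ± 0.16, adjusted p = 0.283), and neither difference passed.

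XTH21, known for expression in roots, had its highest readings in Landsberg erecta among the groups without cycloheximide, as XTH19 and XTH16 did. It read 36.6 and 42.1 in Landsberg erecta, 11.8 and 13.0 in 35S::LFY, and 7.8 and 7.3 in mock. In mock-treated LEAFY-GR it was lower than in Landsberg erecta by limma (-1.49 ± 0.28, adjusted p = 0.00675), the only call among the 8, against 7.82% of all probe sets. The XTH21 call was lost without Landsberg erecta replicate 2 (-1.41, adjusted p = 0.0604) and with a pseudocount of 1 (adjusted p = 0.0729), and over its alternatives the adjusted p ran from 0.00118 to 0.0729. With the lot as a replicate block XTH32 was called in this comparison as well (-0.96, adjusted p = 0.0493). In 35S::LFY the change of XTH21 was -1.14 ± 0.28 (adjusted p = 0.214). With cycloheximide XTH21 read 12.1 and 2.0, near its mock level (-0.11 ± 0.28, adjusted p = 0.803).

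With cycloheximide against mock, 4 of the 8 were called, 2 higher and 2 lower, against 42.8% of all probe sets, so a call there was common. XTH33, a member anchored in the plasma membrane, rose from 41.2 and 33.2 to 211.2 and 330.2 (2.54 ± 0.41, SE, limma adjusted p = 0.000337). XTH20 rose from 23.6 in lot 1 and 36 in lot 2 to 53.3 and 88.7 (1.01 ± 0.32, adjusted p = 0.0238), a call that was lost without mock replicate 1 (adjusted p = 0.156) or cycloheximide replicate 2 (adjusted p = 0.173), with a range of 0.0131 to 0.173 over its alternatives. XTH32, which in Arabidopsis belongs to the hydrolase branch of the family, fell from 188.7 and 177.8 to 32.6 and 69.5 (-1.73 ± 0.28, adjusted p = 0.000334). XTH27, an enzyme needed for normal tracheary elements, fell from 1166.8 and 1284.4 to 381.6 and 587.0 (-1.35 ± 0.22, adjusted p = 0.000307). XTH29 and XTH26 had 0.82 ± 0.34 and 0.83 ± 0.32 and did not pass, and XTH16 had -0.05 ± 0.16. The median of the 8 was 0.38, against -0.03 for all probe sets and 5.28 and 3.43 for XTH18 and XTH19.

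**Figure D3:**
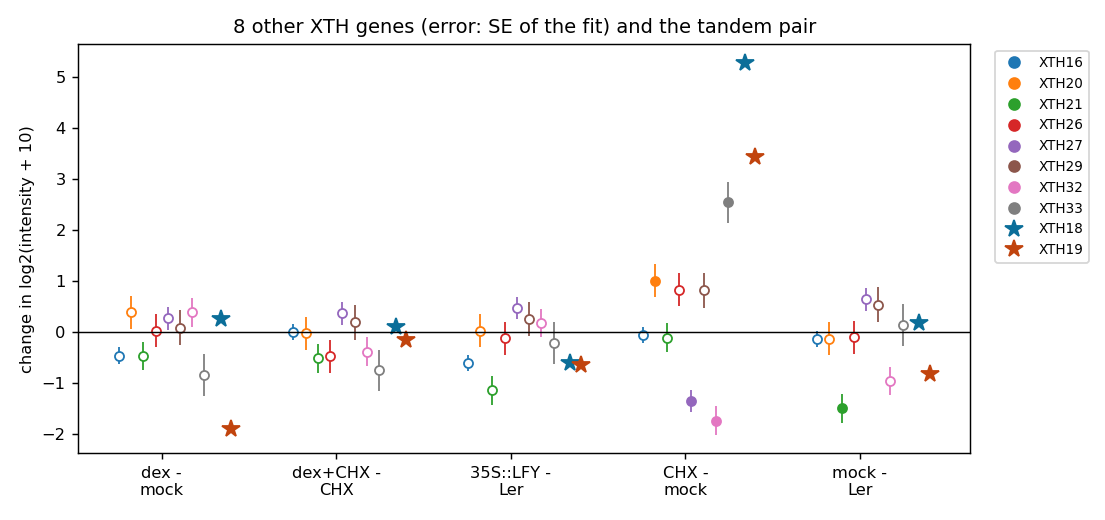
Change in log2(intensity + 10) of the 8 other measured XTH genes (circles, filled where limma called them, with the SE of the fit) beside XTH18 and XTH19 (stars, no test) in 5 comparisons. No circle is filled in the 3 LEAFY comparisons, where at most 0.475% of all probe sets were called. With cycloheximide XTH33 (2.54) and XTH20 (1.01) are filled above 0 and XTH27 (-1.35) and XTH32 (-1.73) below it.

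Of the 11 genes listed for building and trimming xyloglucan only CSLC4, which makes the glucan backbone, was measured. Its signal was higher with cycloheximide, 818.6 and 610.9 against 289.7 and 227.1 (1.43 ± 0.17, SE, limma adjusted p = 3.19e-05). With dexamethasone it changed by 0.43 ± 0.17 (adjusted p = 0.554) and in 35S::LFY by 0.28 ± 0.17 (adjusted p = 0.991).

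Of the 10 loci within 5 genes on either side of the pair, 4 were measured. None was called by limma with dexamethasone (0.475% of all probe sets called), with both agents (0.193%) or in 35S::LFY (0.295%), counts from which nothing is read at such shares. An unadjusted p under 0.05 was seen for 1, 0 and 0 of them there. Without the share of all probe sets at that threshold, nothing is read from these either. AT4G30320, 3 genes beyond XTH19, read 34.8 and 6.2 with dexamethasone against 42.5 and 41.1 in mock (-0.94 ± 0.41, SE, adjusted p = 0.624), so its 2 lots disagreed in size. AT4G30310, the nearest measured locus, changed by 0.23 ± 0.14 with dexamethasone (adjusted p = 0.793) and by 0.14 ± 0.14 with cycloheximide (adjusted p = 0.495). With cycloheximide AT4G30230 rose (1.67 ± 0.43, adjusted p = 0.00799) and AT4G30330 fell (-1.83 ± 0.45, adjusted p = 0.00597), 2 of 4 called against 42.8% of all probe sets.

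The genes most alike to each member were sought by Pearson correlation of log2 values over the 12 arrays, among 8242 named probe sets with a highest group mean of at least 50. These values are descriptions. The step between arrays with and without cycloheximide sets most of them. For XTH18 the 5 most alike were AT2G20720 (0.998), AT1G23710 (0.997), AT5G37070 (0.997), AT2G27310 (0.997) and AT2G32020 (0.996). AT2G20720 went from a mean of 22.9 in mock to 4749.3 with cycloheximide, and AT5G37070 from 251.6 to 2746.8. For XTH19 the 5 were the chitinase gene CHI (0.962), AT1G11670 (0.958), AT4G09130 (0.955), AT1G79420 (0.953) and AT2G30840 (0.953). CHI had means of 32.4 in Landsberg erecta, 20.4 in mock, 11.5 with dexamethasone and 124.7 with cycloheximide. XTH19 had the same order of those 4 groups, a likeness that the search itself selects for. CHI, AT4G09130, AT1G79420 and AT2G20720 reached a group mean of 50 only on arrays with cycloheximide. Without it their group means were at most 32.4, 17.2, 43.0 and 25.2 in turn. XTH18 and XTH19 had a lower correlation with each other, 0.853, which placed XTH19 at rank 1412 for XTH18 and XTH18 at rank 551 for XTH19.

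A search over the 8 arrays without cycloheximide was added after the data had been seen. For XTH19 it gave LCR68 (0.992), AT3G18280 (0.989), the β-tubulin gene TUB1 (0.98), AT1G09750 (0.979) and AT3G11510 (0.978). LCR68, a small cysteine-rich protein of the defensin kind, had means of 1751.0 in Landsberg erecta, 1498.6 in 35S::LFY, 1458.4 in mock and 789.6 with dexamethasone. TUB1 had 245.9, 190.0, 197.0 and 121.6 in the same groups. With cycloheximide these 5 were below mock, LCR68 at 69.2 and TUB1 at 18.6, whereas XTH19 was above it, at 611.8. Over these 8 arrays XTH18 and XTH19 had a value of -0.553 with each other.

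**Figure D4:**
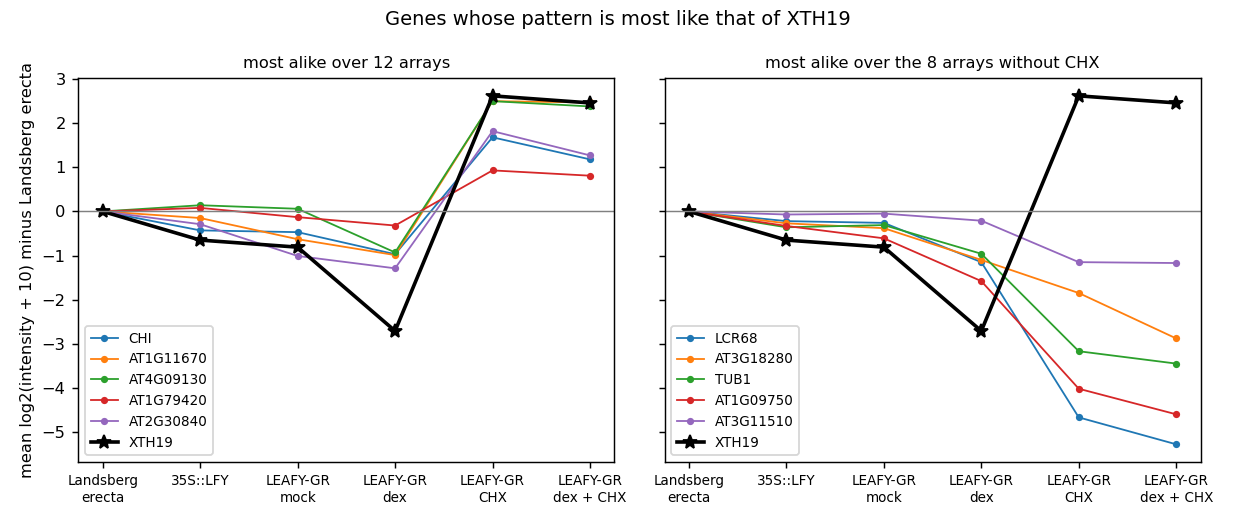
Group means of log2(intensity + 10) relative to Landsberg erecta for XTH19 (black stars) and the 5 genes most alike to it over all 12 arrays (left) or over the 8 arrays without cycloheximide (right). With cycloheximide all lines on the left lie above their mock level, while on the right the 5 genes lie below it and XTH19 above it.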

How the data were processed

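RNA of 12 samples was measured on arrays of 22810 probe sets. The authors deposited 1 linear intensity per probe set and array, and the software behind it is unnamed in the labels. The intensities were used as deposited, since their mean after trimming 2% at each end was 150.01 to 150.02 on all arrays. The table has no detection calls and no depth, and the number of arrays limits the precision. Probe sets were named through the platform's annotation and RefSeq genes of TAIR10.1 (names and gene order only), which gave 13436 tested probe sets 1 locus each; a probe set without a name here may still have a gene. After leaving out 64 control probe sets, log2(intensity + 10) was modelled with limma 3.58.1 (R 4.3.3) using group means and an intensity trend (residual degrees of freedom 6, prior 5.34). Benjamini-Hochberg adjustment ran over 22746 probe sets, and a call is an adjusted p under 0.05. On simulated arrays of that size for dexamethasone against mock, 93 of 100 changes of 2 and 99 of 100 of 3 (log2) were recovered, with 7 false calls. The simulated noise was normal and independent between arrays, with no lot effect and no lower limit for dim probe sets. These shares therefore check the code and do not give the recovery on the real arrays. Plots used Python 3.11.15 with matplotlib 3.10.9.

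The members, gene lists, named genes and tests were chosen with earlier results of these data known. Named were the members, every measured gene of the XTH and xyloglucan lists, measured loci within 5 genes of the pair, and the 5 genes most alike to each member. The lot in the labels is a shared batch and pairs the arrays: deviations from group means correlated at 0.0488 to 0.334 (median 0.144) over 15 pairs of groups, 12 of them over 0.1. The main fit left the lot out, and the lot entered as a block only in an alternative. Alternatives were other pseudocounts, 2 normalisations, the lot as a block, a filter on dim probe sets, and leaving out each array. No probe or gene sequences were used here, so sharing of signal between the related genes was not tested.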

Additional observations from a re-analysis of the deposited data

How the results depend on the processing

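Of 60 recomputed changes of XTH18 and XTH19 under settings over all arrays, 53 moved by less than the pooled SD between arrays of a group and 7 by more. All 7 came from the pseudocount: XTH19 with dexamethasone was -3.07 with a pseudocount of 1 and -0.81 with 50, its difference between the dexamethasone responses was 2.91 and 0.66, and with 50 the cycloheximide changes were 4.97 (XTH18) and 2.76 (XTH19) and the mock against Landsberg erecta change of XTH19 was -0.54. With the lot as a replicate block the members' changes kept their values. Calls over all probe sets rose from 108 to 142 with dexamethasone, 44 to 54 with both agents and 67 to 72 in 35S::LFY. They also rose from 9727 to 10528 with cycloheximide and from 1779 to 2267 in mock against Landsberg erecta. For the difference between the dexamethasone responses they fell from 7 to 2. The other XTH genes called in mock against Landsberg erecta went from 1 to 2. That second call was XTH32 (-0.96, adjusted p = 0.0493), and the block lost none of the calls of XTH genes named here. The count was 0 with a pseudocount of 1, where XTH21 had -2.24 (adjusted p = 0.0729). It was 2 with a pseudocount of 50, equal medians or quantile normalisation. The call beside XTH21 was XTH32, lower, with a pseudocount of 50 (-0.83, adjusted p = 0.0286) and with quantile normalisation (-0.99, adjusted p = 0.0418). With equal medians it was XTH27, higher (0.83, adjusted p = 0.0368). A mean intensity of at least 20 left XTH21 out of the test, and the call was XTH32 (-0.96, adjusted p = 0.0428). With a pseudocount of 50, 1 other XTH gene was called in 35S::LFY, XTH21 (-0.52, adjusted p = 0.0379). Calls over all probe sets in 35S::LFY went from 67 to 34 with equal medians, and for the difference between the dexamethasone responses from 7 to 4 with a pseudocount of 1 and 2 with equal medians. Equal medians moved the median of all probe sets by 0.14 for that difference. The cause of these shifts was not tested. With equal medians the split of higher and lower calls was 29 and 67 with dexamethasone (49 and 59 as deposited), 27 and 4 with both agents (31 and 13), 25 and 9 in 35S::LFY (39 and 28), 1095 and 388 in mock against Landsberg erecta (910 and 869) and 2 and 0 for the difference between responses (6 and 1).

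Leaving out 1 array at a time gave log2 changes of -0.05 to 0.56 (XTH18) and -2.25 to -1.55 (XTH19) with dexamethasone, and -0.46 to 0.16 and 1.38 to 2.09 for the difference between the dexamethasone responses. Calls over all probe sets ran from 33 to 137 with dexamethasone, 20 to 51 with both agents, 1 to 61 in 35S::LFY, 731 to 1976 in mock against Landsberg erecta and 0 to 2 for the difference, and other XTH genes called in mock against Landsberg erecta from 0 to 2. A group left with 1 array is assumed to vary like the others. Signals under about 10, such as XTH19 with dexamethasone and XTH21 in most groups, have no reliable fold.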

Other observations

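Over the 8 arrays without cycloheximide, in the search added after the data had been seen, the genes most alike to XTH18 were the jacalin-related lectin gene JAL34 (0.965), AT4G38560 (0.942), AT5G48110 (0.938), AT5G58400 (0.938) and the kinase gene WNK9 (0.937). AT4G38560 and AT5G58400 reached a group mean of 50 only with cycloheximide (82.8 and 50.6), and on the arrays searched their group means were at most 20.6 and 26.2. JAL34 had means of 2490.0 in 35S::LFY, 2741.0 in Landsberg erecta, 2893.4 in mock and 3062.8 with dexamethasone, the order of XTH18 over those 4 groups. With cycloheximide JAL34 read 1305.0 and 653.4, below mock, where XTH18 was above it. AT5G48110 read 174.8 and 75.8 with dexamethasone, high in lot 1 and low in lot 2 as XTH18 was (228.0 and 145.4), and with cycloheximide it had a mean of 339.7.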
